A study of Mus musculus with 16 samples.

Results

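The genes described here encode the synaptic vesicle and neurotransmitter release machinery. They are a named list of 41 genes, matched by Ensembl identifier, of which those with a mean of at least 1 CPM (a count scaled to a fixed library size) over all 16 libraries were kept. All 41 of 41 met that minimum, out of 55356 identifiers in the table, and all 41 were among the 19156 genes tested. The weakest members, Doc2b, Syn3 and Rab3b, averaged 10.3, 10.5 and 10.6 CPM, so no member lay near the minimum. The rule for membership used no measured value other than this minimum, but the list was proposed with earlier results of these data known.

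In a nerve terminal, transmitter is loaded into vesicles by transporters, vesicles are docked and primed at a scaffold called the active zone, and SNARE proteins on vesicle and plasma membrane zip together to fuse them. Calcium entering through channels is read by synaptotagmins, which trigger fusion, and the membrane is then taken back by endocytosis. Sensory neurons of the dorsal root ganglion are mostly glutamatergic, and they also hold dense-core vesicles with peptides, which share much of this machinery.

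RNA was measured in dorsal root ganglion neurons cultured from CD1 mouse embryos, kept in culture for 6 days with nerve growth factor, plus fluorodeoxyuridine and uridine to remove dividing cells. The 4 groups of 4 libraries were inhibitor plus nocodazole (500 nM GNE3511, then 200 nM nocodazole), nocodazole (DMSO, then 200 nM nocodazole), inhibitor (500 nM GNE3511, then DMSO) and DMSO (DMSO, then DMSO). GNE3511 inhibits dual leucine zipper kinase (DLK), a kinase that carries damage signals from the axon to the nucleus, and nocodazole makes microtubules disassemble. The first agent was given 15 min before the second, which stayed on for 16 h. The question is which RNA changes follow microtubule loss and which of them need DLK. With 1 inhibitor at 1 dose, effects through DLK and through other targets cannot be told apart. The labels do not say whether replicates came from separate cultures or litters, so the tests measure the spread between these libraries, which may be technical.

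Libraries held 30987962 to 43321421 counts. Neuronal markers were high: the 11 listed summed to between 12872 and 16176 CPM in each library. Of the 9 glial markers, Sox10 averaged 0.195 CPM, and the glial sum rested on S100b and Mbp. That sum lay between 74.2 and 138 CPM in inhibitor plus nocodazole, 85.9 and 134 CPM in nocodazole, 87.4 and 154 CPM in inhibitor, and 151 and 175 CPM in DMSO libraries. The fibroblast sum was 2.11 to 3.10 CPM in inhibitor plus nocodazole, 5.63 to 8.46 CPM in nocodazole, 2.37 to 4.53 CPM in inhibitor and 2.55 to 5.32 CPM in DMSO libraries. The macrophage sum was 1.87 to 3.03, 4.22 to 5.50, 1.62 to 2.88 and 2.28 to 2.79 CPM in these groups in the same order. Both sums were low, and both were wholly higher in nocodazole libraries than in the other groups, while the endothelial sum was lower still. Mitochondrially encoded transcripts, which bear on RNA and cell quality, made up 1.36% to 1.78% of counts in 5 libraries (inhibitor plus nocodazole replicate 1, nocodazole replicates 1 and 2, inhibitor replicates 2 and 3) and 0.765% to 1.09% in the other 11. None of the 5 was a DMSO library. The labels number the 5 as sample_5 to sample_9, a consecutive run, and the DMSO libraries as sample_2, sample_16, sample_18 and sample_20. Sample order and treatment can therefore not be fully told apart in comparisons with DMSO. The part of these markers and shares in the results was not tested, but the members called in the 6 comparisons of the design were also counted without those 5 libraries. In bulk RNA, fewer cells of a type and less RNA per cell cannot be told apart.

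Under DMSO the machinery was strongly expressed, and its parts differed widely in level. Per kilobase of exon, Cplx1, whose product complexin clamps and promotes SNARE fusion, stood highest at 334 CPM per kilobase. It was followed by Syt11, a synaptotagmin that binds calcium poorly, at 231, and the vesicle SNARE gene Vamp2 at 167 CPM per kilobase. Rab3a, a vesicle GTPase, and Syn1, whose product tethers vesicles in clusters, had 166 and 162 CPM per kilobase, and these 2 values and that of Vamp2 lay within their spread between libraries. Of the glutamate transporters, Slc17a6 (VGLUT2) had 77.9 and Slc17a7 (VGLUT1) 2.83 CPM per kilobase. Among fast calcium sensors Syt2, Syt9 and Syt1 lay at 42.9, 35.7 and 34.3 CPM per kilobase. The slower sensor gene Syt7 lay at 26.0 and Doc2b, a high-affinity sensor for spontaneous release, at 1.92 CPM per kilobase. Lowest of all was Syn3, a synapsin, at 1.28 CPM per kilobase. Exon lengths came from an annotation of another build than the authors', so these levels are approximate.

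**Figure D1:**
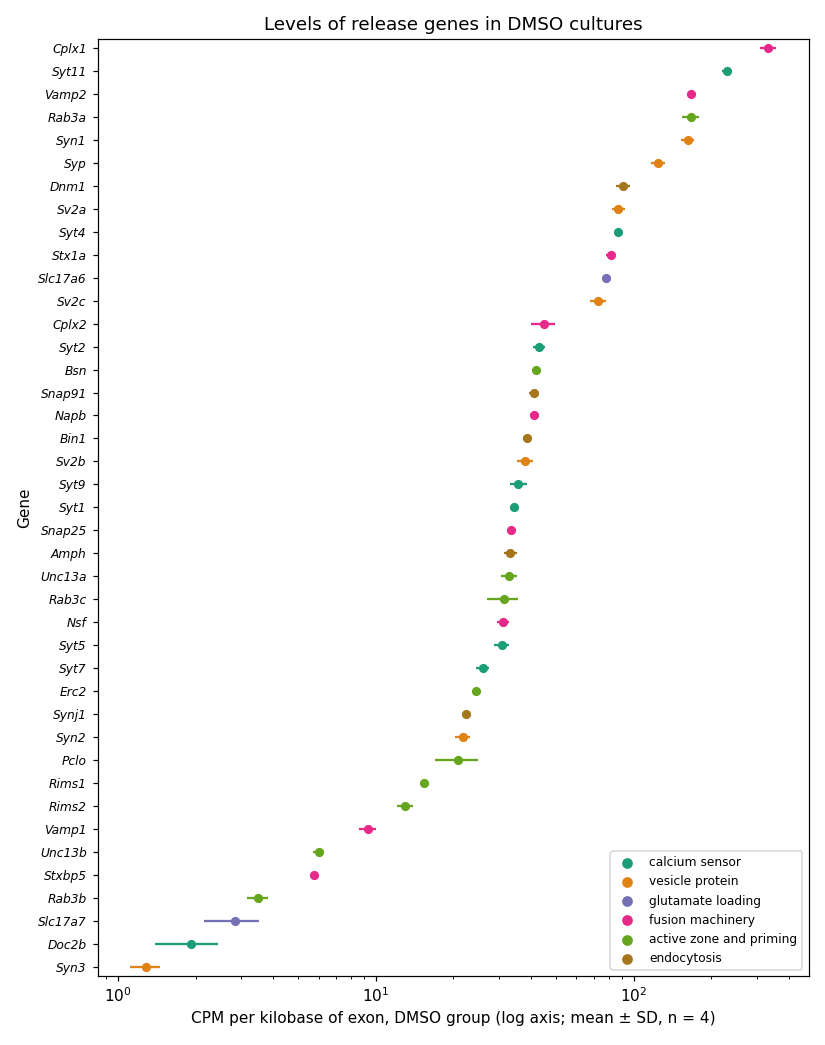
Level of each of the 41 genes in the DMSO group, in CPM per kilobase of exon on a log axis, as the mean of 4 libraries with its SD and coloured by role. Cplx1 is highest and Syn3 lowest, and Slc17a6 lies far above Slc17a7.

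The stretches upstream of 4 genes are printed because JNK, the kinase downstream of DLK, acts on Jun and ATF factors. These bind the AP-1 site (TGACTCA) and the cyclic AMP response element (CRE, TGACGTCA, whose core is TGACG). The RE1 element, through which REST represses neuronal genes in other cells, was searched by its left part, TTCAGCACC. Syn1, Stx1a and Slc17a6 were lowered by the inhibitor and Stxbp5 was raised by nocodazole, as given further on. These 4 are a selection and do not stand for all genes changed by either agent. Sequences are RefSeq's, on build GRCm38.p6, and cover the 250 bases before the annotated start, 5′ to 3′ on the gene's strand, with every match on either strand in capitals.
Syn1 (chrX:20920919-20921168, minus strand): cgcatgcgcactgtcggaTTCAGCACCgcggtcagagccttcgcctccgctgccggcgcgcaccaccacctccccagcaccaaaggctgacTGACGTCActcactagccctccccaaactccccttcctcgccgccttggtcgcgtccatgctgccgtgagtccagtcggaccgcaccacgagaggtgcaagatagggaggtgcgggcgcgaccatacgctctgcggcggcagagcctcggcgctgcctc
Stx1a (chr5:135023232-135023481, plus strand): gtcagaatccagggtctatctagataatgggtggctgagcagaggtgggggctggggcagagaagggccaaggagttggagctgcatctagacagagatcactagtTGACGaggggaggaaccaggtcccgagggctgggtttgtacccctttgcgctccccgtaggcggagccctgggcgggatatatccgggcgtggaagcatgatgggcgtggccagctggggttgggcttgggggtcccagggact
Slc17a6, first start (chr7:51621580-51621829, plus strand): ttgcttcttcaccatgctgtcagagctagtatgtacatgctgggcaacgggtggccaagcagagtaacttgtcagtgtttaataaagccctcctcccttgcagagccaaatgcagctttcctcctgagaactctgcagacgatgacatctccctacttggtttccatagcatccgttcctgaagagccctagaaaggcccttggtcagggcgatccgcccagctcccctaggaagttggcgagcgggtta
Slc17a6, downstream start (chr7:51624387-51624636, plus strand): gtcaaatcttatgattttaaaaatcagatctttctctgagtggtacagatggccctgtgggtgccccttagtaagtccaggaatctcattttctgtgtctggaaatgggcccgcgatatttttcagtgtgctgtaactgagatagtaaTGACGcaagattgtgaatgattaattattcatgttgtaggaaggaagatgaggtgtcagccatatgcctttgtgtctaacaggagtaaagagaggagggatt
Stxbp5 (chr10:9901041-9901290, minus strand): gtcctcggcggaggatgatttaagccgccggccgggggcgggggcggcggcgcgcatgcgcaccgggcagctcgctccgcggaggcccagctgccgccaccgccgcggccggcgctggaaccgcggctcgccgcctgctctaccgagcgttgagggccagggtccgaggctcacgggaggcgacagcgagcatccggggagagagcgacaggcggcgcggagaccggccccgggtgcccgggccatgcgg

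The Syn1 stretch held a full CRE beginning 159 bases upstream of the start and the RE1 left part beginning 232 bases upstream. Matches were counted over windows of 300 bases, from 250 before to 50 after the start, of which 41 belonged to 32 of the 41 genes. A full CRE was found in 1 of the 41 windows, that of Syn1, and in 1.79% of all 32851 windows. The CRE core, which every full CRE contains, was in 9 of the 41 windows and in 20.8% of all windows. The 9 belonged to Cplx1, Rab3a, Rab3b, Slc17a6, Stx1a, Syn1, Synj1, Syt2 and Unc13a. Of these genes only Slc17a6, Stx1a and Syn1 were called with the inhibitor alone. Syt9, Sv2c, Syn3, Syt4 and Syt11, also lowered by the inhibitor, had no core in a window or had no window. Stx1a held the core 144 bases upstream and the downstream start of Slc17a6 held it 102 bases upstream. The AP-1 letters were in 2 of the 41 windows, of Syt2 and Erc2, and in 5.20% of all windows. The RE1 left part was in 2, of Syn1 and Unc13a, and in 0.371% of all windows. The Stxbp5 stretch held none of the 4. A match describes letters in a stretch and does not show that a factor binds there.

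Nocodazole without the inhibitor changed 18 of the 41 genes: 4 rose and 14 fell, at an edgeR adjusted p below 0.05. Over all 19156 genes tested, 18.6% rose and 19% fell in this comparison. The share of members called (43.9%) was thus near the background of 37.5%, with 34.1% falling and 9.76% rising. The median log2 change of the members was -0.16, beside 0.01 for all genes tested, and no member changed by 1 or more on the log2 scale. The CPM of the 4 nocodazole libraries lay wholly above the DMSO libraries for 4 members and wholly below for 13, where 18% and 18.9% of all genes did so. Without the 5 libraries of high mitochondrial share, 5 rose and 12 fell, and 4 genes lost their calls. Syt9 (-0.26, adjusted p = 0.0894) and Vamp2 (-0.14, 0.0585) kept their size on the log2 scale in that fit. Nsf (-0.14, 0.113) and Rab3a (-0.15, 0.0965) shrank, beside -0.31 and -0.27 with all libraries. The number that fell was 8 without nocodazole replicate 1, 7 without nocodazole replicate 2, and 9 without DMSO replicate 2 or DMSO replicate 4.

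The 4 genes that rose were calcium-sensor family genes Syt4 and Doc2b, the fusion inhibitor Stxbp5 and the endocytic gene Bin1. Syt4, a synaptotagmin of vesicles that binds calcium poorly, had 545, 537, 471 and 524 CPM in the nocodazole libraries, against 345, 341, 326 and 338 CPM in the DMSO libraries. All nocodazole libraries lay well above all DMSO libraries, and the log2 change was 0.62 ± 0.0919 (SE, edgeR adjusted p = 6.57e-05). Stxbp5 encodes tomosyn, which holds SNARE proteins in complexes that cannot fuse vesicles. It had 132, 121, 113 and 113 CPM in nocodazole libraries and 94.8, 91.8, 97.9 and 96.5 CPM in DMSO libraries, again without overlap. The log2 change was 0.33 ± 0.0513 (SE, edgeR adjusted p = 9.55e-05). Doc2b had 13.1, 11.2, 22.9 and 18.8 CPM in nocodazole libraries and 6.94, 5.89, 10.6 and 9.99 CPM in DMSO libraries. Its groups did not overlap, but the lowest nocodazole library stood close to the highest DMSO library, and the log2 change was 0.98 ± 0.27 (SE, edgeR adjusted p = 0.00918). Bin1, a membrane-curving amphiphysin relative, averaged 176 ± 6.17 CPM with nocodazole and 158 ± 5.71 CPM in DMSO (SD, n = 4 each), and its log2 change was 0.15 ± 0.0572 (SE, edgeR adjusted p = 0.0444). That small Bin1 change lost its call when any of 11 libraries was left out, with an adjusted p of up to 0.162 (without nocodazole replicate 4). It also lost it with no low-count filter (adjusted p = 0.151) and in DESeq2 (adjusted p = 0.0505).

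Other calcium sensors moved the other way. Syt7, which supports asynchronous release and vesicle replenishment, had 132, 155, 103 and 119 CPM in the nocodazole libraries, against 210.2, 191, 183 and 194 CPM in the DMSO libraries. Every nocodazole library lay below every DMSO library, and the log2 change was -0.61 ± 0.108 (SE, edgeR adjusted p = 0.000332). Syt9, a fast sensor, averaged 118 ± 6.29 CPM with nocodazole and 142 ± 10.8 CPM in DMSO (SD, n = 4 each), and its log2 change was -0.27 ± 0.0953 (SE, edgeR adjusted p = 0.0373). The Syt9 call was lost without any 1 of 6 libraries, with an adjusted p of up to 0.102 (without DMSO replicate 2). The other members of the family, Syt1, Syt2, Syt5 and Syt11, did not pass, with log2 changes of -0.05, -0.31, 0.01 and -0.22.

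Of the 7 vesicle proteins 3 fell and none rose. Syn2, a synapsin, had 123, 127, 122 and 106 CPM in nocodazole libraries, against 148, 141, 158 and 163 CPM in DMSO libraries. The groups were separate, and the log2 change was -0.35 ± 0.0729 (SE, edgeR adjusted p = 0.00126). Syn3 averaged 9.30 ± 2.07 and 15.8 ± 2.14 CPM in nocodazole and DMSO libraries (SD, n = 4 each), and its log2 change was -0.76 ± 0.205 (SE, edgeR adjusted p = 0.00774). Sv2b encodes a glycoprotein of the SV2 family, transporter-like proteins that help ready vesicles for release. It had 159, 135, 205 and 243 CPM in nocodazole libraries and 313, 345, 290.1 and 320.3 CPM in DMSO libraries, and its log2 change was -0.77 ± 0.253 (SE, edgeR adjusted p = 0.0237). The 2 lowest of these libraries, nocodazole replicates 1 and 2, were those of high mitochondrial share, and the Sv2b call was lost without either (adjusted p = 0.0665 and 0.0722) or without DMSO replicate 2 (0.0545). Without all 5 libraries of high mitochondrial share Sv2b was still called, but its log2 change was smaller at -0.50 (adjusted p = 0.000203). Syn1, Sv2a and Sv2c had log2 changes of -0.16, -0.14 and -0.21, which did not pass, and the vesicle membrane protein gene Syp had one of 0.00 (95% interval -0.13 to 0.13).

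Within the fusion machinery, Stx1a, a plasma membrane SNARE, had 165, 170.2, 198 and 182 CPM in nocodazole libraries, against 211, 221, 209 and 227 CPM in DMSO libraries. No nocodazole library reached the DMSO range, and the log2 change was -0.28 ± 0.0615 (SE, edgeR adjusted p = 0.0019). Vesicle SNARE genes Vamp1 and Vamp2 and Nsf, the ATPase that takes spent SNARE complexes apart, fell by smaller or less certain amounts. Their log2 changes were -0.17, -0.14 and -0.31 (edgeR adjusted p = 0.0258, 0.0477 and 0.047). Leaving out single libraries ended these calls in 2, 9 and 7 of 16 cases. Adjusted p then reached 0.0976 and 0.112 (both without DMSO replicate 4) and 0.141 (without nocodazole replicate 2). Vamp2 was also lost with RLE scaling (adjusted p = 0.0583), upper-quartile scaling (0.0621) and no low-count filter (0.0771). Nsf was lost with upper-quartile scaling (0.065) and Vamp1 with only the groups compared (0.0531). Snap25, the complexin genes Cplx1 and Cplx2 and the SNARE-recycling gene Napb were not called, at -0.15, -0.21, 0.27 and 0.07.

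At the active zone, 3 of 10 genes fell and none rose. Rims2, whose RIM protein ties vesicles to calcium channels, had 106, 97.6, 107 and 101 CPM in nocodazole libraries and 136, 148, 127 and 128 CPM in DMSO libraries. The groups did not overlap, and the log2 change was -0.39 ± 0.0685 (SE, edgeR adjusted p = 0.000333). Its relative Rims1 changed by -0.26 ± 0.0776 (SE, edgeR adjusted p = 0.0146) and the vesicle GTPase gene Rab3a by -0.27 ± 0.0866 (SE, edgeR adjusted p = 0.023). The Rab3a call was lost without DMSO replicate 4, nocodazole replicate 1 or nocodazole replicate 2 (adjusted p = 0.0777, 0.0695 and 0.0716). The scaffold genes Bsn, Pclo and Erc2, the priming genes Unc13a and Unc13b, and Rab3b and Rab3c were not called, with log2 changes between -0.37 (Rab3b) and 0.11 (Bsn). In endocytosis, Snap91, which encodes the clathrin assembly protein AP180, and Amph, which encodes amphiphysin, changed by -0.23 ± 0.0729 (SE, edgeR adjusted p = 0.0183) and -0.35 ± 0.109 (SE, edgeR adjusted p = 0.0195). Snap91 lost its call without DMSO replicate 2 (adjusted p = 0.0521) or nocodazole replicate 2 (0.0543). Amph lost its call without DMSO replicate 4 (0.0568), nocodazole replicate 1 (0.0563) or nocodazole replicate 2 (0.0613). The membrane-cutting dynamin gene Dnm1 and the uncoating phosphatase gene Synj1 were not called, at -0.16 and -0.05, nor were Slc17a6 and Slc17a7, at 0.09 and 0.01.

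**Figure D2:**
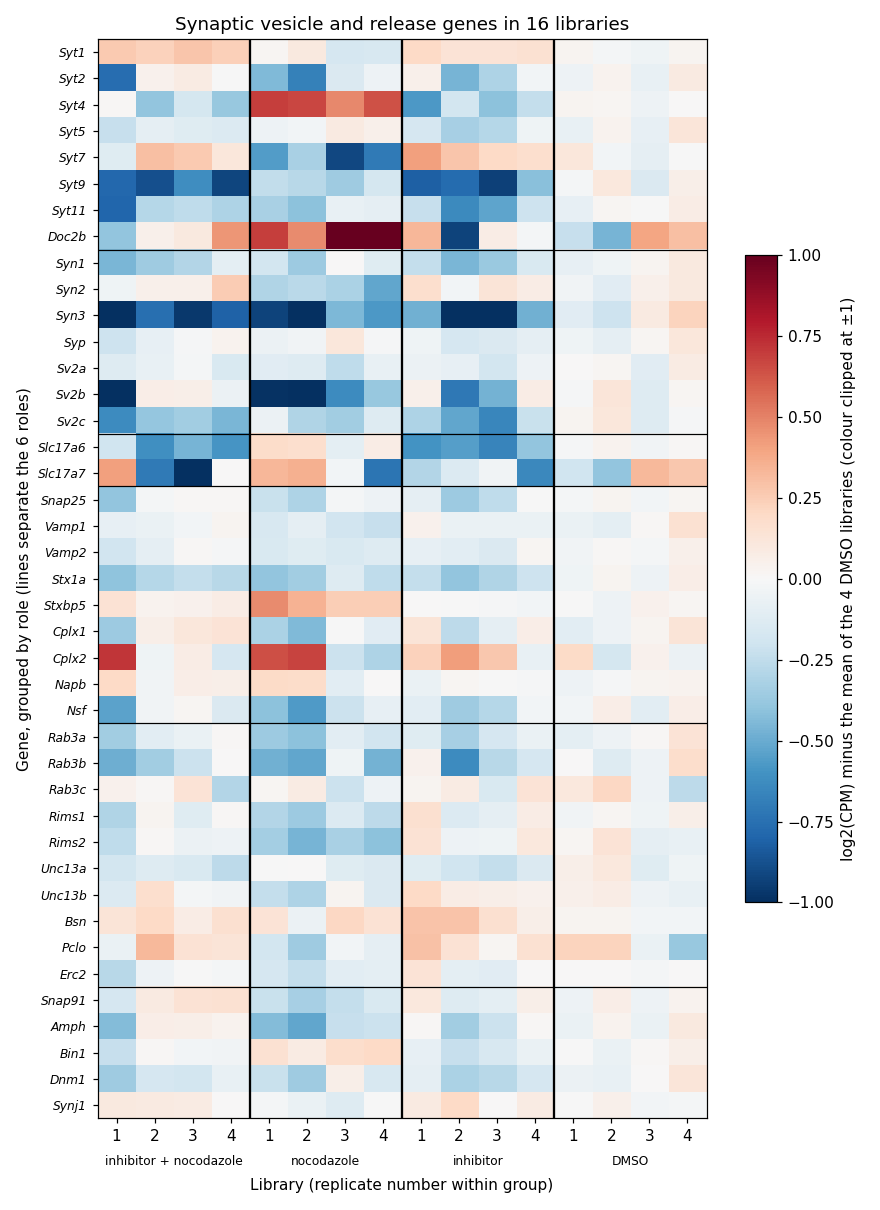
Each row is a gene and each column a library, coloured by log2(CPM) minus the mean of the 4 DMSO libraries, with genes grouped by role. Syt4 and Doc2b are red in the nocodazole block and Syt7 blue, while Syt9, Slc17a6 and Sv2c are blue in both inhibitor blocks.

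With the inhibitor present, nocodazole changed none of the 41 genes by the edgeR test, at an adjusted p below 0.05 or at an unadjusted p below 0.05 (0 genes in either case), and DESeq2 called 0. In that comparison 0.0783% of all genes tested were called higher and 0.00522% lower, 0.0835% in all, so a count of 0 is near the background. The inhibitor plus nocodazole libraries lay wholly above the inhibitor libraries for 2 members and wholly below for 0, where 2.03% and 1.25% of all genes did so. The median log2 change was 0.00 for the members, as for all genes, and the largest in size was -0.19 (Syn3). The 95% interval lay within 0.5 of 0 on the log2 scale for 37 of the 41. Syt4, the gene called with the smallest p after nocodazole alone, had 339, 257, 299 and 260.1 CPM in inhibitor plus nocodazole libraries, against 226, 298, 254 and 286 CPM in inhibitor libraries. These ranges overlapped, and the log2 change was 0.12 (95% interval -0.07 to 0.31). Syt7 had 179, 239, 233 and 210.0 CPM in inhibitor plus nocodazole libraries and 258, 235, 224 and 218 CPM in inhibitor libraries, which overlapped, with a log2 change of -0.12 (95% interval -0.34 to 0.11).

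**Figure D3:**
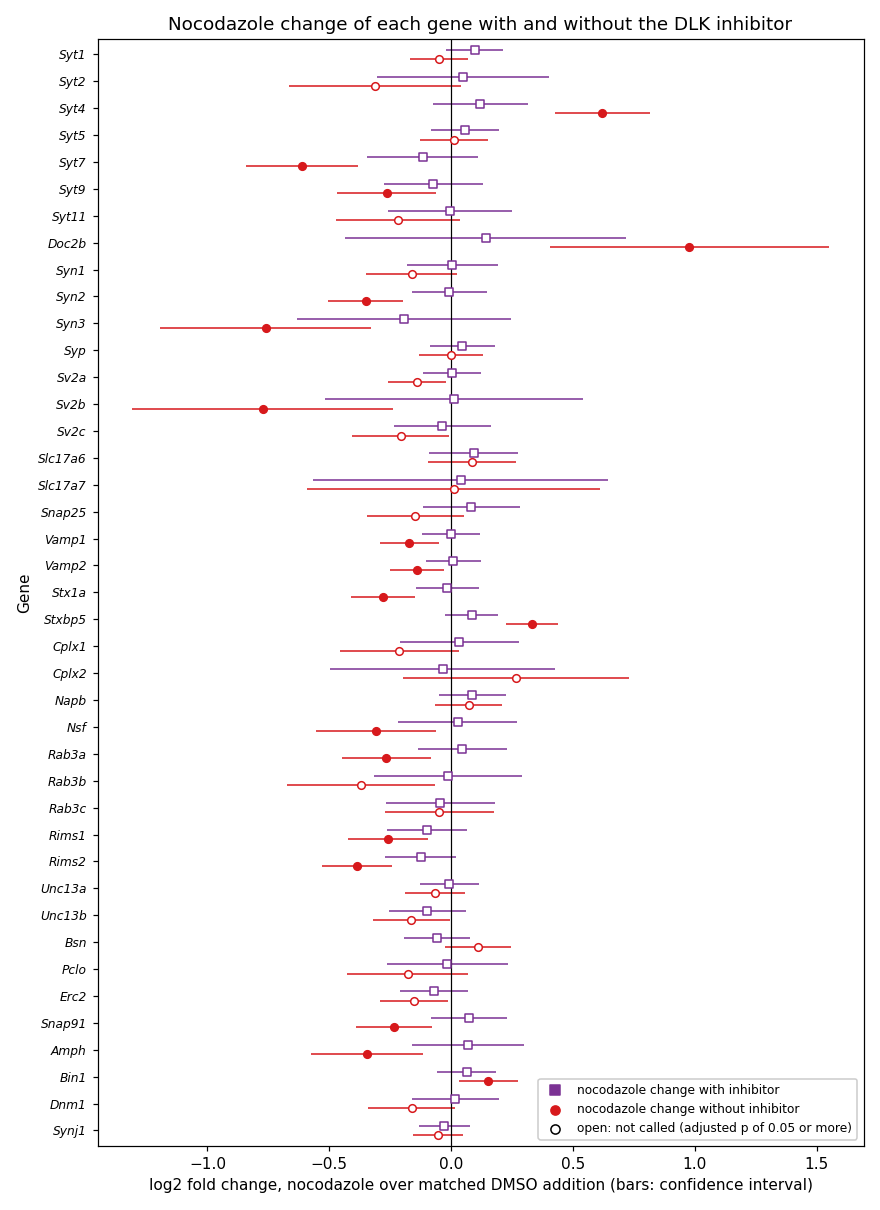
Log2 fold change of each gene after nocodazole, with the inhibitor (squares, inhibitor plus nocodazole over inhibitor) and without it (circles, nocodazole over DMSO), with 95% intervals and filled symbols for called changes. All 41 squares are open and lie near 0, while 18 circles are filled.

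Whether the nocodazole change differed with the inhibitor was tested directly as the interaction, which is the log2 change with inhibitor minus that without. It was called for 6 members, 4 positive and 2 negative, where 9.52% of all genes tested were called positive and 9.2% negative. The members' share (14.6%) was below the background of 18.7%. With upper-quartile scaling 2 were positive and 2 negative. The median interaction of the members was 0.16 and 35 of 41 values were positive, beside a median of 0.00 over all genes. The share of all genes with a positive value was not counted. Against DMSO, 31 of 41 members were negative after nocodazole and 30 of 41 with the inhibitor. The interaction reuses those libraries with the opposite sign, so its sign is not independent of these changes. The negative interactions belonged to genes raised by nocodazole alone, Syt4 at -0.50 ± 0.13 (SE, edgeR adjusted p = 0.0137) and Stxbp5 at -0.25 ± 0.0725 (SE, edgeR adjusted p = 0.0262). Stxbp5 had 105, 97.7, 98.1 and 100.5 CPM in inhibitor plus nocodazole libraries and 95.3, 95.0, 94.5 and 93.5 CPM in inhibitor libraries, and every one of these was below every nocodazole library. Positive interactions belonged to genes lowered by nocodazole alone: Syt7 at 0.49 ± 0.152 (SE, edgeR adjusted p = 0.033), Syn2 at 0.34 ± 0.103 (SE, edgeR adjusted p = 0.029), Snap91 at 0.31 ± 0.103 (SE, edgeR adjusted p = 0.0471) and Stx1a at 0.26 ± 0.087 (SE, edgeR adjusted p = 0.0432). Syn2 had 147, 157, 158 and 181 CPM in inhibitor plus nocodazole libraries and 171, 149.7, 167 and 161 CPM in inhibitor libraries, ranges that overlapped each other and the DMSO range. Snap91 had 332, 398, 413 and 415 CPM in inhibitor plus nocodazole libraries and 402, 342, 349 and 389 CPM in inhibitor libraries, which also overlapped.

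Stx1a had another pattern. Its CPM was 164, 178, 184 and 179 in inhibitor plus nocodazole libraries, 165, 170.2, 198 and 182 in nocodazole libraries, 184, 165, 177 and 188 in inhibitor libraries and 211, 221, 209 and 227 in DMSO libraries. All 3 treated groups lay below DMSO and overlapped one another. The interaction calls were less secure than the nocodazole calls: Syt4 alone kept its call in every alternative run. Leaving out single libraries ended the call in 10 of 16 cases for Syt7, 4 for Syn2, 11 for Snap91, 10 for Stx1a and 7 for Stxbp5, with adjusted p of at most 0.0983 in these omissions (Snap91 without inhibitor replicate 2). The number of members called ranged from 1, without inhibitor plus nocodazole replicate 4 or inhibitor replicate 2, to 14 without inhibitor plus nocodazole replicate 1. The share of all genes called in these omissions was not counted. Without the 5 libraries of high mitochondrial share 8 were called, but Stx1a (0.15, adjusted p = 0.229) and Stxbp5 (-0.19, 0.0863) were not among them. The remaining 12 genes changed by nocodazole alone did not pass the interaction test, which does not show that they changed alike with and without the inhibitor.

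**Figure D4:**
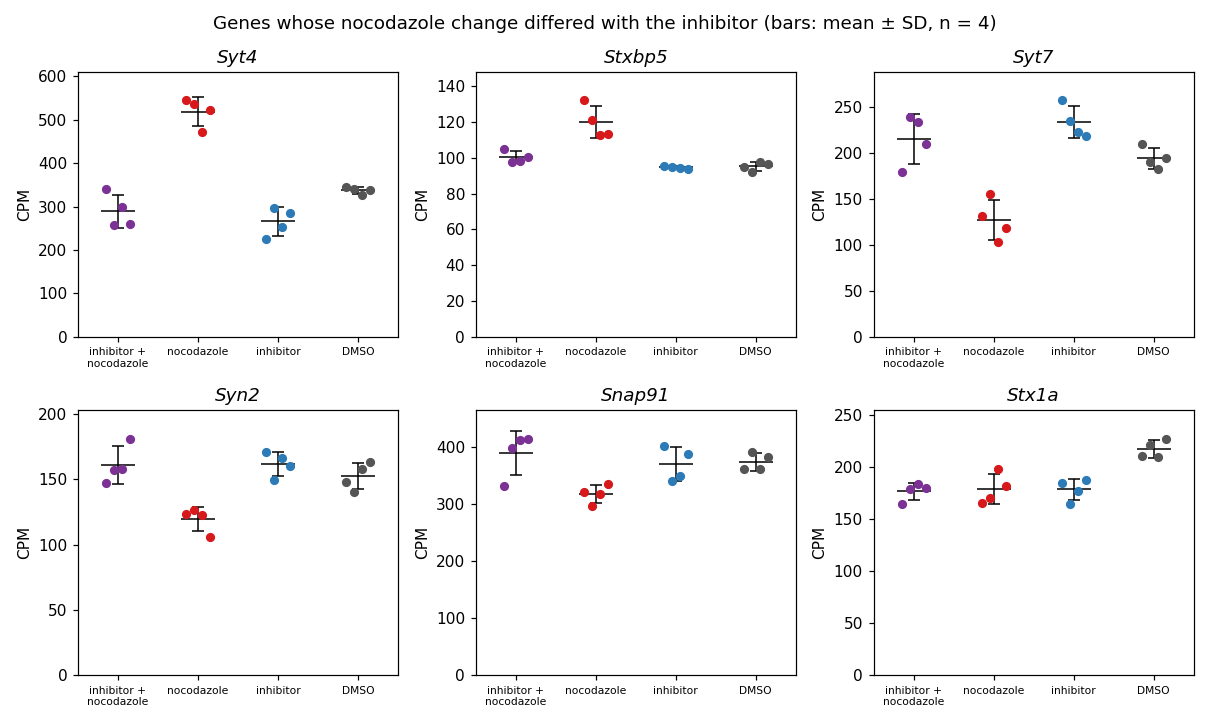
CPM of the 6 genes with a called interaction in each library (points), with the group mean and SD (n = 4 per group), for inhibitor plus nocodazole, nocodazole, inhibitor and DMSO. Syt4 and Stxbp5 are high in the nocodazole group alone, Syt7, Syn2 and Snap91 are low there, and Stx1a is highest in DMSO.

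The inhibitor without nocodazole lowered 8 of the 41 genes and raised none. Over all genes tested 7.24% fell and 5.78% rose, so the 19.5% of members that fell exceeded the background, on a median log2 change of -0.11 for the members and 0.03 for all genes. The background was not matched for level: members averaged at least 10.3 CPM, while the genes tested include ones as weak as Syt15, at 0.326 CPM. At an unadjusted p below 0.05, 3 members were higher and 12 lower, DESeq2 called 1 higher and 10 lower, and upper-quartile scaling gave 2 higher and 7 lower. The inhibitor libraries lay wholly below the DMSO libraries for 10 members and wholly above for 3, where 11.6% and 10.1% of all genes did so. Without the 5 libraries of high mitochondrial share 7 fell and 2 rose. Without 3 of these (inhibitor replicates 2 and 3, inhibitor plus nocodazole replicate 1) 3 fell and none rose. Without inhibitor replicate 2 or 3 alone 5 and 4 fell, and without DMSO replicate 2 or 4, 5 and 4.

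The calcium-sensor gene Syt9 showed the smallest p. It had 80.4, 83.1, 74.2 and 106 CPM in inhibitor libraries, against 139.9, 153, 128 and 148 CPM in DMSO libraries. Every inhibitor library was below every DMSO library, and the log2 change was -0.73 ± 0.0959 (SE, edgeR adjusted p = 0.000245). Slc17a6, the transporter that fills vesicles with glutamate in most sensory neurons, had 277, 287, 267 and 319 CPM in inhibitor libraries, against 417, 431, 410.4 and 424 CPM in DMSO libraries. The groups lay far apart, and the log2 change was -0.55 ± 0.0863 (SE, edgeR adjusted p = 0.000802). Syt9 and Slc17a6 kept their calls in every alternative run. Stx1a, whose values are given above, fell by 0.28 on the log2 scale (SE 0.0615, edgeR adjusted p = 0.00706). The lower-ranked calls were Sv2c at -0.42 ± 0.0944 (SE, edgeR adjusted p = 0.00894), Syn3 at -0.80 ± 0.204 (SE, edgeR adjusted p = 0.018), Syt4 at -0.34 ± 0.0918 (SE, edgeR adjusted p = 0.0218), Syn1 at -0.30 ± 0.0883 (SE, edgeR adjusted p = 0.0342) and Syt11 at -0.39 ± 0.12 (SE, edgeR adjusted p = 0.0429).

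Each of these was less secure. Syn1 averaged 434 ± 40.7 CPM with inhibitor and 535 ± 29.2 CPM in DMSO (SD, n = 4 each), and its call was lost in 5 of 16 omissions of a library, with adjusted p of up to 0.118 (without inhibitor replicate 2). Syt11 averaged 918 ± 136 and 1202 ± 53.9 CPM in inhibitor and DMSO libraries (SD, n = 4 each), and was lost in 7 omissions, with adjusted p of up to 0.142 (without inhibitor replicate 2). Syn3 was lost without inhibitor replicate 2, inhibitor replicate 3 or DMSO replicate 4 (adjusted p = 0.0646, 0.0647 and 0.0657). Syt4 was lost without inhibitor replicate 3, DMSO replicate 2 or DMSO replicate 4 (adjusted p = 0.0693, 0.0533 and 0.0565). Sv2c and Stx1a held in every single omission but not without the 3 libraries named above (-0.27 and -0.22, adjusted p = 0.107 and 0.0914). Syt11, Syn1 and Syn3 also lost their calls in that fit, with smaller log2 changes of -0.22, -0.20 and -0.49 (adjusted p = 0.194, 0.285 and 0.139). Without all 5 libraries the changes of Syt11, Syn3, Sv2c and Stx1a were similarly small (-0.22, -0.49, -0.27 and -0.22) but called. That of Syn1 (-0.20) was not called (adjusted p = 0.142). Both omissions leave the same inhibitor libraries, replicates 1 and 4, and all DMSO libraries. None of the 5 endocytosis genes and none of the 10 active zone and priming genes was called with the inhibitor, nor was Slc17a7 at -0.30. As 13% of all genes tested were called in this comparison, no call in lists this short is near the background.

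**Figure D5:**
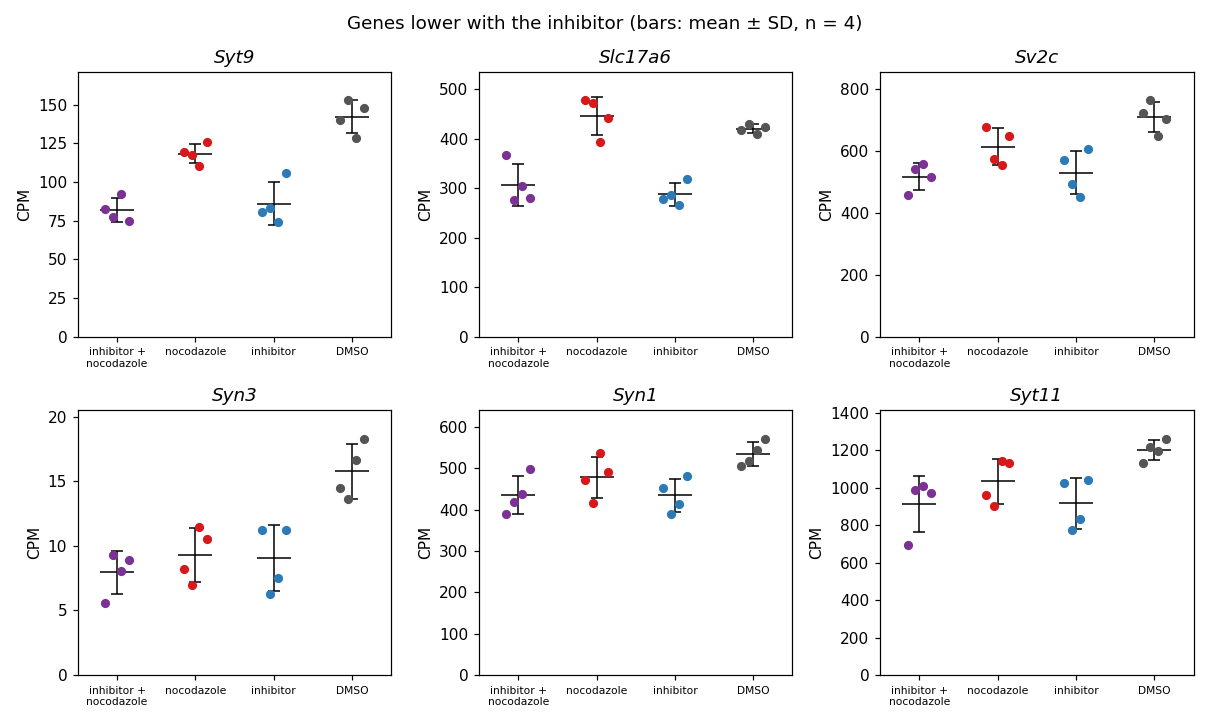
CPM of 6 genes lowered by the inhibitor in each library (points), with the group mean and SD (n = 4 per group), for inhibitor plus nocodazole, nocodazole, inhibitor and DMSO. For Slc17a6 both inhibitor groups lie below the nocodazole and DMSO groups, and for Syn3 all 3 treated groups lie below DMSO.

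Some close relatives were called after one agent and not the other, so the agents were compared directly as nocodazole versus inhibitor, a comparison added after the results were seen. In it 7 members were higher with nocodazole and 9 lower, where 17.4% and 18.7% of all genes tested were, 36.2% in all. The 7 higher genes were Syt4, Slc17a6, Stxbp5, Bin1, Syt9, Doc2b and Syt5, and the 9 lower genes were Syt7, Rims2, Syn2, Syt1, Unc13b, Rims1, Synj1, Snap91 and Pclo. Slc17a6, which the inhibitor lowered, had 478, 473, 393 and 442 CPM in nocodazole libraries, all above the inhibitor range, and differed by 0.63 ± 0.0863 (SE, edgeR adjusted p = 2.58e-05). Syt9, lower than in DMSO after either agent, was still higher with nocodazole than with inhibitor, by 0.46 ± 0.0957 (SE, edgeR adjusted p = 0.0012). Its values were 119, 117, 111 and 126 CPM in nocodazole libraries. Without the 5 libraries of high mitochondrial share the Syt9 difference was 0.35 and not called (adjusted p = 0.0568). Syt4, raised by nocodazole and lowered by the inhibitor, differed by 0.97 ± 0.0924 (SE, edgeR adjusted p = 6.95e-07), and Stxbp5 by 0.34 ± 0.0513 (SE, edgeR adjusted p = 6.55e-05). The lower genes with the smallest p were Syt7 at -0.87 ± 0.109 (SE, edgeR adjusted p = 1.03e-05), Rims2 at -0.43 ± 0.0685 (SE, edgeR adjusted p = 0.00013) and Syn2 at -0.44 ± 0.0729 (SE, edgeR adjusted p = 0.000182). Rims2 had 149, 129.8, 130.3 and 144 CPM in inhibitor libraries, all above the nocodazole range, and the inhibitor values of Syt7 and Syn2 given above were likewise above theirs. Syt4, Syt7, Syn2, Stxbp5, Rims2, Slc17a6, Bin1 and Doc2b kept this call in every alternative run, and the other 8 did not. For Syn1, Syn3, Sv2c, Syt11 and Stx1a, all called against DMSO with the inhibitor, the agents did not differ at the threshold, at 0.14, 0.04, 0.21, 0.17 and 0.00. The 95% interval of the difference was -0.13 to 0.13 for Stx1a and -0.40 to 0.47 for Syn3. Of the 18 genes called with nocodazole and the 8 called with inhibitor, 4 were called with both, namely Syt4, Syt9, Syn3 and Stx1a, which is 22.2% and 50% of the lists. Of all 41 members, 19.5% were called with inhibitor and 43.9% with nocodazole, so the shared calls were near these shares. The overlap over all genes tested was not counted. Both comparisons use the same DMSO libraries.

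Adding the inhibitor before nocodazole changed 11 of the 41 genes relative to nocodazole alone, with 5 higher and 6 lower. Over all genes tested 17.7% were higher and 16.2% lower, 33.9% in all, so the members' shares (12.2% and 14.6%) lay below the background. All 11 calls were kept in every alternative run. Without inhibitor plus nocodazole replicate 1, a library of high mitochondrial share, 18 members were called, 12 of them higher, and without all 5 such libraries 16 were, 7 of them higher. The share of all genes called in those fits was not counted. The 3 genes higher with the smallest p were Syt7 at 0.76 ± 0.108 (SE, edgeR adjusted p = 4.80e-05), Syn2 at 0.43 ± 0.0729 (SE, edgeR adjusted p = 0.000244) and the fast calcium sensor Syt1 at 0.30 ± 0.056 (SE, edgeR adjusted p = 0.000511). Syt1 had 342, 336, 347 and 337 CPM in inhibitor plus nocodazole libraries, against 289, 306, 254 and 256 CPM in nocodazole libraries. Its groups did not overlap, and inhibitor plus nocodazole libraries varied little among themselves. Rims2 and Snap91 were also higher, at 0.30 ± 0.0685 (SE, edgeR adjusted p = 0.0027) and 0.29 ± 0.073 (SE, edgeR adjusted p = 0.00499). Rims2 had 113, 135, 129 and 130.0 CPM in inhibitor plus nocodazole libraries, every one above the nocodazole range given above.

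Of the 6 lower genes, 4 were those raised by nocodazole alone. That comparison uses the same nocodazole libraries with the opposite sign, so the match is not independent. Syt4, Stxbp5, Bin1 and Doc2b had log2 differences of -0.85, -0.26, -0.22 and -0.95 (edgeR adjusted p = 3.26e-06, 0.000955, 0.00646 and 0.012). Doc2b had 6.17, 8.39, 8.69 and 11.1 CPM in inhibitor plus nocodazole libraries, a range that overlapped that of DMSO. The remaining 2 were Slc17a6 at -0.54 ± 0.0862 (SE, edgeR adjusted p = 0.000138) and Syt9 at -0.53 ± 0.0958 (SE, edgeR adjusted p = 0.000398), which the inhibitor also lowered without nocodazole. Slc17a6 had 367, 275, 305 and 280.1 CPM in inhibitor plus nocodazole libraries, below all nocodazole and DMSO libraries. Syt9 had 82.5, 77.2, 92.2 and 75.0 CPM in inhibitor plus nocodazole libraries, likewise below all nocodazole libraries.

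Against DMSO, inhibitor plus nocodazole raised 1 member, Syt1, and lowered 8, where 8.26% of all genes tested rose and 8.48% fell. The 19.5% of members that fell exceeded that background, which again was not matched for level, and the median log2 change was -0.09. Syt1 had 292, 282, 278 and 292 CPM in DMSO libraries, all below the inhibitor plus nocodazole libraries, and its log2 change was 0.25 ± 0.0559 (SE, edgeR adjusted p = 0.00555). The inhibitor libraries, at 329, 315, 315 and 317 CPM, also lay above all DMSO libraries, but that change was not called (0.16, edgeR adjusted p = 0.074). The 8 that fell were Syt9 at -0.80 ± 0.096 (SE, edgeR adjusted p = 4.86e-05), Slc17a6 at -0.46 ± 0.0862 (SE, edgeR adjusted p = 0.00193), Stx1a at -0.30 ± 0.0615 (SE, edgeR adjusted p = 0.00343), Sv2c at -0.45 ± 0.0944 (SE, edgeR adjusted p = 0.00368), Syn3 at -0.99 ± 0.206 (SE, edgeR adjusted p = 0.00368), Syn1 at -0.30 ± 0.0883 (SE, edgeR adjusted p = 0.0303), Syt11 at -0.39 ± 0.12 (SE, edgeR adjusted p = 0.0336) and the priming gene Unc13a at -0.18 ± 0.0578 (SE, edgeR adjusted p = 0.039). The first 7 are the genes lowered by the inhibitor alone other than Syt4, which stood at -0.22 here. The 2 comparisons share their DMSO libraries. Syt1, Syt9, Slc17a6, Stx1a, Sv2c and Syn3 kept their calls in every alternative run, while Syn1, Syt11 and Unc13a lost theirs without 1 of several libraries, with the number that fell at 5 without DMSO replicate 2 or DMSO replicate 4 and adjusted p of up to 0.0929, 0.0889 (both without DMSO replicate 4) and 0.133 (without DMSO replicate 2). Without the 5 libraries of high mitochondrial share 2 rose and 9 fell.

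Over the 6 comparisons of the design 24 of the 41 genes were called at least once and 17 never. The share of all genes tested that was called at least once was not counted, so these counts have no background beside them. The 17 were the scaffold and priming genes Bsn, Pclo, Erc2 and Unc13b, the GTPase genes Rab3b and Rab3c, the fusion genes Snap25, Cplx1, Cplx2 and Napb, the endocytic genes Dnm1 and Synj1, the vesicle genes Syp and Sv2a, Slc17a7, and the sensors Syt2 and Syt5. Of these, Syt5, Unc13b, Pclo and Synj1 did differ between nocodazole and inhibitor, at 0.22, -0.26, -0.31 and -0.15 (edgeR adjusted p = 0.0178, 0.0127, 0.0467 and 0.0232), and none of these 4 calls was kept in every alternative. Uncertainty differed among them: the 95% interval after nocodazole was -0.13 to 0.13 for Syp and -0.35 to 0.05 for Snap25, but -0.59 to 0.61 for Slc17a7 and -0.20 to 0.73 for Cplx2. Summed over the 41 genes, CPM lay between 10760.2 and 12377 in inhibitor plus nocodazole libraries, 11307 and 12139 in nocodazole libraries, 11131 and 12462 in inhibitor libraries, and 12521 and 13080.3 in DMSO libraries. Every DMSO library was thus above every treated library in this sum. These sums are weighted to the few strongest genes.

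Relatives of the members from a list of 84 other release genes, of which 77 were tested, included genes that changed by more than any member. After nocodazole alone 15 rose and 22 fell (19.5% and 28.6%, where 18.6% and 19% of all genes did), and with the inhibitor present none was called, where 0.0835% of all genes were. The plasma membrane SNARE gene Stx3 rose by 1.41 ± 0.101 (SE, edgeR adjusted p = 4.83e-08) and Syt12, a synaptotagmin that does not bind calcium, by 2.42 ± 0.25 (SE, edgeR adjusted p = 1.90e-06). Syt12 lay near the floor, with a mean of 0.846 CPM over all libraries, below the minimum set for members, and 8 to 23 counts in DMSO libraries. Stx3 and Rab27b averaged 14.7 and 46.4 CPM. Rab27b, a GTPase of secretory granules, changed by -1.51 ± 0.18 (SE, edgeR adjusted p = 8.00e-06) and the priming gene Unc13c by -0.98 ± 0.117 (SE, edgeR adjusted p = 8.06e-06). Stx1a and Stx3, both plasma membrane syntaxins, thus had called changes of opposite sign after nocodazole. The interaction was called for 22, 16 positive and 6 negative (20.8% and 7.79%, where 9.52% and 9.2% of all genes were), with Stx3 at -1.26 ± 0.142 (SE, edgeR adjusted p = 3.34e-05), Syt12 at -2.45 ± 0.401 (SE, edgeR adjusted p = 0.000655), Rab27b at 1.38 ± 0.249 (SE, edgeR adjusted p = 0.00133) and Rims4 at 1.00 ± 0.2 (SE, edgeR adjusted p = 0.00282).

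With the inhibitor alone 3 of the 77 rose and 12 fell (3.90% and 15.6%, where 5.78% and 7.24% of all genes did). The 4 with the smallest p all fell: the active zone scaffolds Ppfia3 (-0.41) and Ppfia2 (-0.40), the vesicle protein Svop (-0.37) and Syt13 (-1.05), at edgeR adjusted p of 0.000211, 0.00122, 0.000802 and 0.000949. Relative to nocodazole alone, the inhibitor with nocodazole raised 18 and lowered 13 (23.4% and 16.9%, where 17.7% and 16.2% of all genes were), led by Synj2 (-1.72), Stx3 (-1.22), Ppfia2 (-0.79) and the near-floor Syt12 (-3.05), which all fell. Relative to DMSO it raised 7 and lowered 16 (9.09% and 20.8%, where 8.26% and 8.48% of all genes were), led by Ppfia3 (-0.38), Syt13 (-1.22), Itsn1 (0.33) and Synj2 (-0.86).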

How the data were processed

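RNA of 16 libraries (4 groups of 4) was measured as gene counts. The deposited table holds whole-number counts per Ensembl gene, not normalized. Per the submitters' processing notes STAR, Salmon and build GRCm39 were used, with no versions or roles given, so which tool made the counts, and whether strand was used, is not given in the sources used here. Identifiers were given symbols from a table of gene names, which matched 94.1% of the 55356.

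Counts were tested with edgeR 4.0.16 (R 4.3.3): TMM scaling (factors 0.959 to 1.06), filterByExpr, a quasi-likelihood F test on all 16 libraries with 1 mean per group, Benjamini-Hochberg over 19156 genes, called below 0.05. A "rise" or "fall" means such a call. SE is the log2 change divided by the square root of F. CPM values use TMM-scaled library sizes, and levels per kilobase use exon lengths from GENCODE M21. In each comparison the called members are named, with library values for the 3 smallest p in each direction and for called interactions. The members and lists were chosen with earlier results of these data known. Replicates of a group differed by far more than counting noise (chi-square per degree of freedom 8.28 to 51.3 over 24 pairs), so none was counted as a duplicate. Alternatives were DESeq2 1.42.0, RLE and upper-quartile scaling, no filter, only the groups compared, a replicate block and omission of each library. Omission of 3 or 5 libraries of high mitochondrial share, and the nocodazole versus inhibitor comparison, were chosen after seeing the data. The procedure was also run on simulated counts, with changes placed in the nocodazole group only. They were drawn with the spread that edgeR fitted to these data, so the run could not show a misfit of that model. Its outcome is not given, and no result here rests on it. The simulated counts held no differences in library quality, so the run does not bear on the libraries of high mitochondrial share.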

Additional observations from a re-analysis of the deposited data

Results flagged for a closer look

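In 5 of 112 groups (28 genes in 4 groups each), 1 library stood apart from the other 3 by a gap above 0.829 of the group's range. Chance flags about 1 in 20 groups. Inhibitor plus nocodazole replicate 1, a library of high mitochondrial share, was the low library for Amph at 111 CPM, Sv2b at 128 CPM and Syt11 at 692 CPM. Inhibitor replicate 1 was the high library for Syt1 at 329 CPM and for Vamp1 at 97.4 CPM.

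The nocodazole change differed between cultures with and without the inhibitor, by the interaction test in edgeR, for 6 genes. The log2 interactions were -0.50 for Syt4, 0.49 for Syt7, 0.34 for Syn2, 0.31 for Snap91, 0.26 for Stx1a and -0.25 for Stxbp5.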

How the results depend on the processing

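No change of direction occurred among the called changes under any alternative: of 1626 values for 68 called changes, 1439 kept their call and 187 lost it. The lists below count members called, then those that rose and those that fell, and the cause of each move was not tested. Shares over all genes tested were counted in the reported fit only, so these counts have no background beside them. Leaving out 1 library at a time gave 11 to 20 called, 3 to 5 and 7 to 17 for nocodazole versus DMSO, and 4 to 11, 0 to 2 and 4 to 11 for inhibitor versus DMSO. For inhibitor plus nocodazole versus nocodazole it gave 11 to 18, 5 to 12 and 6 to 7, and for inhibitor plus nocodazole versus DMSO 6 to 10, 1 to 1 and 5 to 9. For the interaction it gave 1 to 14, 0 to 12 and 1 to 2, and for inhibitor plus nocodazole versus inhibitor 0 throughout. The number that rose with inhibitor versus DMSO, 0 in the reported fit, was 1 by DESeq2, 2 with upper-quartile scaling, 2 with only the groups compared and 2 without the 5 libraries of high mitochondrial share. For the interaction, upper-quartile scaling gave 2 positive calls and no filter on low counts 1 negative call. Without inhibitor replicates 2 and 3 and inhibitor plus nocodazole replicate 1, inhibitor versus DMSO had 3 called and 3 fell, and inhibitor plus nocodazole versus nocodazole had 19 called and 13 rose. Without the 5 libraries, inhibitor plus nocodazole versus DMSO had 2 that rose.

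Libraries with the same replicate number did not deviate together: 8 of 24 such pairs had a correlation above 0.1 (range -0.40 to 0.23), and 5 of 16 libraries correlated best with their own number. The numbers were therefore not taken to pair the samples. With a replicate block 19 members were called for nocodazole versus DMSO, 10 for inhibitor versus DMSO, 0 for inhibitor plus nocodazole versus inhibitor, 12 for inhibitor plus nocodazole versus nocodazole, 9 versus DMSO and 6 for the interaction, and 2 of the 68 called changes were lost. Counts of a member in 1 library ran from 147 (Doc2b) to 51862, and Doc2b, Slc17a7, Sv2b and Cplx2 had the widest errors after nocodazole.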

Other observations

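Several members differed between sets of libraries that cut across the 3 treated groups. Cplx2 had 265 to 360.0 CPM in the 5 libraries with a mitochondrial share above 1.3% and 177 to 257 CPM in the other 11. Syt2 had 193 to 264 CPM in the same 5 libraries and 297 to 348 CPM in the other 11, and Nsf had 175 to 214 CPM and 224 to 272 CPM in those sets. For these 3 genes the sets did not overlap, although the 5 libraries belong to the 3 treated groups. All DMSO libraries are among the other 11. Sv2b had 128 to 228 CPM in the 5 libraries and 205 to 345 CPM in the other 11, which overlapped. Its nocodazole libraries also lay wholly below its DMSO libraries. The 4 genes were picked for this split after their values were seen, so it carries no test.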
